A study of Mus musculus with 56 samples.

Results

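The transcripts described here are those of the AP-1 and BATF transcription factors, the genes *Jun*, *Junb*, *Jund*, *Fos*, *Fosb*, *Fosl2*, *Batf*, *Batf3*, *Maf* and *Atf3*. The set was chosen by gene symbol, with earlier results of these data known. All 10 were found among the 55359 genes of the count table. Reads were counted in CD8 T cells that bind the OVA:Kb tetramer (TFGS), sorted from spleen and lymph nodes of single female C57BL/6 mice, with 200 cells per library. Naive mice were neither grafted nor mated (3 mice), and Sensitized mice had rejected a skin graft from male 2W-OVA.BALB/c donors, which express the 2W-OVA antigen throughout the body (4 mice). N+P mice were naive females and S+P mice sensitized females that had carried pups of a 2W-OVA.BALB/c father, and their cells were taken shortly after birth. N+P cells were sorted into C1, negative for PD-1, and C5, positive for PD-1 and CD73 (3 mice each). S+P cells were sorted into C4, negative for PD-1 (6 mice), C5 (6 mice) and C7, positive for PD-1 and negative for CD73 (5 samples). Sorting by PD-1 and CD73 fixes how the subsets differ in those surface proteins, and the mice came from more than 1 experiment, which the labels do not tie to single mice.

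AP-1 is a dimer of a JUN protein with a FOS or ATF protein that binds DNA through a basic leucine zipper. In T cells *Fos*, *Jun* and *Junb* are immediate early genes, switched on within minutes of receptor signalling, and AP-1 then acts together with NFAT at cytokine genes. BATF pairs with JUN proteins, lacks an activation domain of its own and binds composite sites with IRF4 or IRF8. MAF, a larger zipper protein of the same superfamily, is known for driving *Il10* and *Il21* and for its presence in exhausted and follicular T cells, and ATF3 is a stress-induced factor.

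Of the 10 genes, *Maf* separated the groups most clearly. It lay between 10.3 and 190.0 CPM (counts scaled to library size, with TMM factors) in every C5 sample and between 0.539 and 6.80 CPM in every Naive, N+P C1 and Sensitized sample. *Batf* had its highest mean in S+P C5, at 109 ± 38.8 CPM (SD, n = 6), against 46.0 ± 12.1 CPM (n = 4) in Sensitized. *Jun*, *Junb* and *Fos* were abundant in every group and varied widely between mice of a group. *Atf3* was above 3 counts in 6 of 30 samples, and *Batf3* had 1 count in all samples together. None of these differences passed the thresholds (below an adjusted p of 0.1 and beyond 0.9 on the log2 scale) in edgeR's quasi-likelihood fit. That fit held all 7 groups. The call for *Maf* in S+P C5 against Sensitized depended on which samples shared the fit and on the test. DESeq2 called it on the same 30 samples.

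The 30 samples held 15547934 to 54809406 counts, after the libraries of each mouse and subset were added up, and 19659 genes were tested. *Cd8a* lay between 567 and 1579 CPM in all 30 samples, while *Cd4* reached 3.71 CPM at most. 3 samples, each a single library, had under 9000 genes with a count, namely S+P C4 replicates 2 (8002 genes) and 3 (7436) and S+P C7 replicate 3 (7879), against 12383 or more in the others. S+P C7 replicate 3 also held *Hba-a1*, a globin of red cells, at 10044 CPM, against 254 CPM or less elsewhere, and *Ncr1*, an NK cell receptor, at 103 CPM, against 7.73 CPM or less. 1 library stood with the same counts in Naive and in S+P C4 and was left out of both, and S+P C7 replicate 2 was nearly identical to a library of S+P C7 replicate 1, so their mean entered as replicate 1. Of the marker genes of other cell types, *Itgax*, which encodes CD11c and is also found on activated T cells, was called in Sensitized against Naive (29.8 to 84.3 CPM against 0 in all 3 mice, adjusted p = 0.0566). *Klrb1c* lay between 53.3 and 126 CPM in Sensitized and at most at 0.0823 CPM in Naive, and *Trdc* between 1.12 and 5.08 CPM in Sensitized and at 0 in S+P C5. The part of these cells or states in the results below was not tested. In bulk samples, fewer cells that express a gene and less of its RNA per cell cannot be told apart.

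On a scale that allows genes to be compared, CPM per kilobase of exon, the median over the 30 samples was 267 for *Junb*, 135 for *Fos*, 42.9 for *Batf*, 37.5 for *Jun*, 12.6 for *Jund*, 5.86 for *Fosb*, 2.10 for *Fosl2* and 1.71 for *Maf*. This order differed by group. By group mean, *Fos* was above *Junb* in N+P C1 (294 and 263), *Jun* was above *Batf* in Naive (94.6 and 35.8) and below it in S+P C5 (33.0 and 76.1), and *Maf* was above *Fosl2* in S+P C5 (9.11 and 2.26) and below it in Sensitized (0.30 and 2.36). The *Fos* mean in N+P C1 leans on mouse 1, with 1438 CPM before scaling to length, against 359 and 281 CPM in the other mice. Among the JUN genes *Junb* had the highest mean in all 7 groups, and among the FOS genes *Fos* did. The genes lie on 6 chromosomes (GRCm39). *Fos* (chr12:85520658-85524047) and *Batf* (chr12:85733423-85755861) are separated by 209 kb, and *Batf3* (chr1:190830044-190841142) and *Atf3* (chr1:190902493-190950241) by 61.4 kb. *Jund* (chr8:71151599-71153265), *Junb* (chr8:85701113-85705359) and *Maf* (chr8:116409632-116434579) share a chromosome but are far apart. *Jun* (chr4:94937271-94940459) and *Jund* consist of a single exon, and *Fosb* (chr7:19036621-19043976) and *Fosl2* (chr5:32292707-32315186) complete the set.

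**Figure D1:**
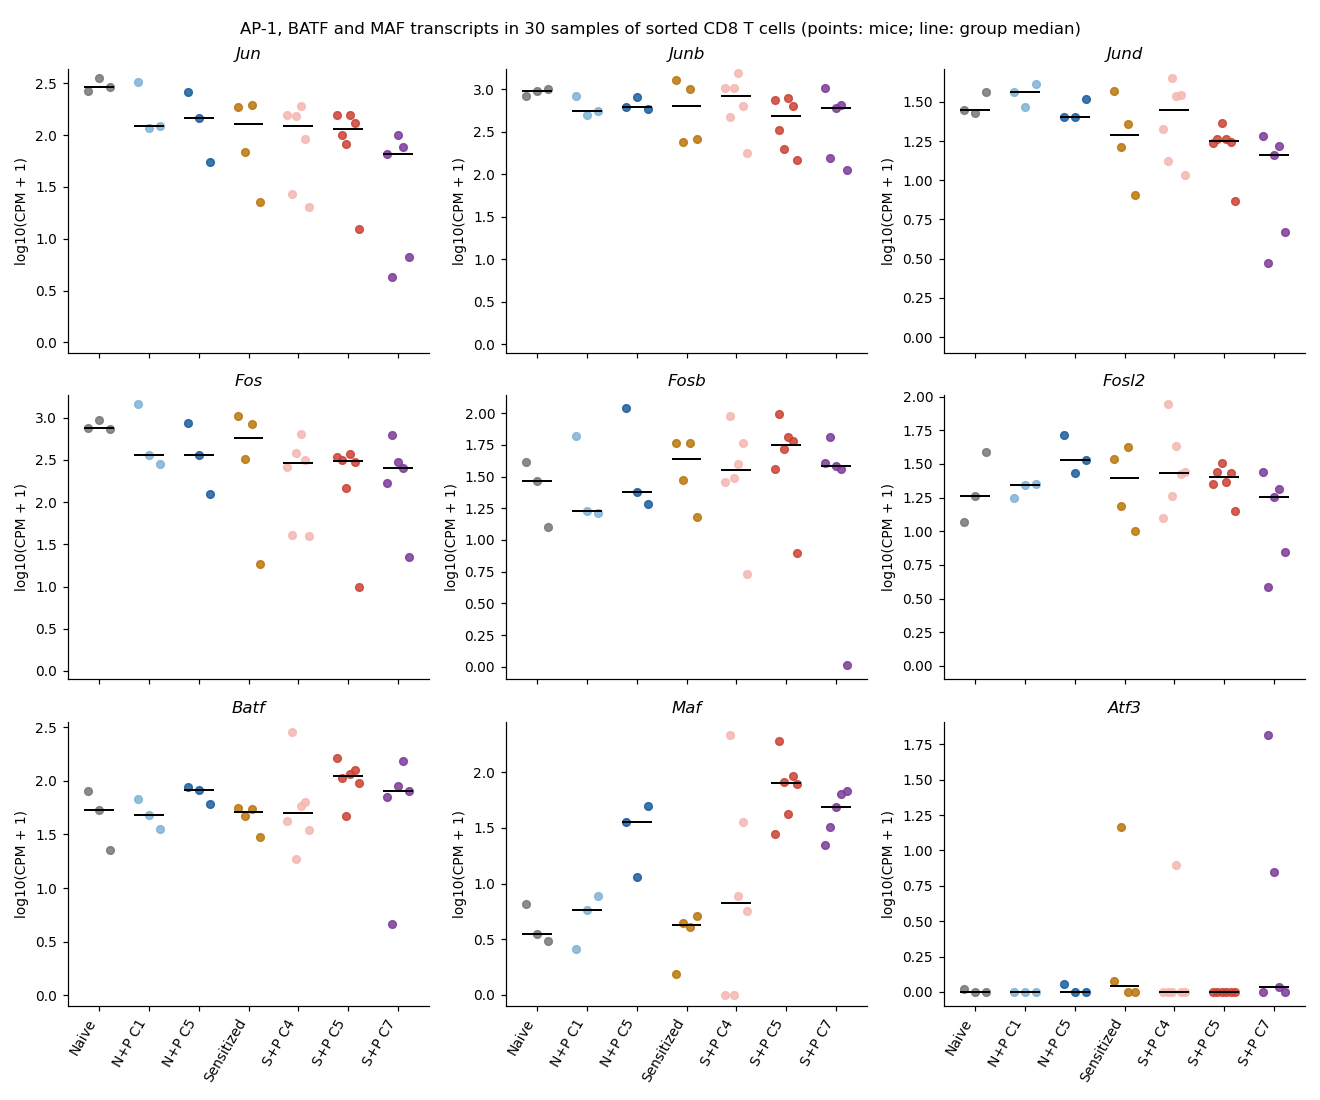
Level of 9 of the genes in each sample, as log10 of CPM plus 1, by sorted group, with a line at the group median. *Maf* is at 10.3 CPM or more in all C5 samples and at 6.80 CPM or less in Naive, N+P C1 and Sensitized, *Fos* spans 8.81 to 373 CPM in S+P C5, and *Atf3* is near 0 except in 4 samples.

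The JUN genes are taken first. *Jun* encodes the founding AP-1 subunit. It stood at 265, 352 and 288 CPM in the 3 Naive mice, at 323, 117 and 123 in N+P C1 and at 262, 145 and 53.6 in N+P C5. The Sensitized mice had 187, 67.1, 193 and 21.8 CPM. All Sensitized and all N+P C5 mice were thus below every Naive mouse, as they were for 3.81% and 5.48% of the genes tested. The highest N+P C5 mouse (262 CPM) nearly reached the lowest Naive mouse (265 CPM). S+P C4 ranged from 19.4 to 191 CPM with a median of 122, S+P C5 from 11.5 to 156 with a median of 114 and S+P C7 from 3.32 to 99.4 with a median of 64.9. These 3 groups overlapped each other and Sensitized. *Jun* differed by -1.36 ± 0.90 (log2 fold change ± SE, adjusted p = 0.793) in Sensitized against Naive and by -0.97 ± 0.98 (adjusted p = 1.0) in N+P C5 against Naive. The latter was -1.60 without N+P C5 replicate 1 and -0.55 without replicate 3. S+P C5 differed from Sensitized by -0.16 ± 0.76 (adjusted p = 1.0). Within the S+P mice, *Jun* was lower in C7 than in C5 of the same mouse in 5 of 5 mice, with a difference of -1.07 ± 0.74 (adjusted p = 0.782). The C7 sample of mouse 1 includes the mean of near-identical libraries labelled replicates 1 and 2. For such counts of mice, here and below, the share of all genes with the same direction was not computed.

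*Junb*, whose product often pairs with BATF in T cells, had the highest level per kilobase of the 10 genes by the median over all samples. Naive mice had 829, 941 and 989 CPM, N+P C1 mice 827, 496 and 558, and N+P C5 mice 618, 809 and 583. Every N+P sample lay below every Naive sample, as was so for 3.08% of genes in C1 and 5.48% in C5, but the highest C1 sample (827 CPM) nearly reached the lowest Naive sample (829 CPM). Sensitized mice had 1274, 237, 988 and 256 CPM, so that replicates 1 and 3 were high and replicates 2 and 4 low. S+P C4 ranged from 178 to 1525 CPM, S+P C5 from 146 to 773 and S+P C7 from 111 to 1016, so that these groups overlapped. In all 6 S+P mice the C5 subset had less *Junb* than the C4 subset of the same mouse (-0.79 ± 0.50, adjusted p = 0.578). S+P C5 differed from Sensitized by -0.55 ± 0.55 (adjusted p = 1.0), and N+P C5 from Naive by -0.46 ± 0.71 (adjusted p = 1.0).

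*Jund*, the JUN gene least tied to stimulation, had a narrow range in Naive mice (25.8 to 35.8 CPM) and in N+P mice (24.4 to 40.3 CPM). It lay between 6.37 and 22.2 CPM in S+P C5, below the 24.4 to 31.8 CPM of N+P C5 with no overlap, as did 1.7% of the genes tested in that direction. That difference was not past the thresholds, nor was S+P C5 against Sensitized (-0.32 ± 0.71, adjusted p = 1.0). The lowest *Jund* levels of the series were 1.96 CPM in S+P C7 replicate 3 and 3.67 CPM in S+P C7 replicate 6.

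Of the FOS genes, *Fos* is the classic rapidly induced gene with a short-lived mRNA. Naive mice had 758, 952 and 737 CPM. N+P C1 mice had 1438, 359 and 281 CPM and N+P C5 mice 870.0, 363 and 125 CPM, with mouse 1 highest in both subsets. Sensitized mice had 1045, 323, 834 and 17.3 CPM, the widest spread of the unmated groups. S+P C4 ranged from 38.8 to 632 CPM (median 286), S+P C5 from 8.81 to 373 (median 306) and S+P C7 from 21.6 to 618 (median 252). All groups overlapped Sensitized. N+P C5 differed from Naive by -0.85 ± 1.07 (adjusted p = 1.0), a value of -1.74 without N+P C5 replicate 1 and -0.39 without replicate 3. S+P C5 differed from Sensitized by -1.17 ± 0.83 (adjusted p = 0.755). *Fosb*, a closely related early gene, ranged from 0.0244 to 109 CPM, with mean levels of 26.8 CPM in Naive and 52.5 CPM in S+P C5. It was higher in C5 than in C4 of the same mouse in 6 of 6 S+P mice (0.32 ± 0.85, adjusted p = 0.993). In N+P mice it was higher in C5 than in C1 in 3 of 3 (0.64 ± 1.20, adjusted p = 1.0). The fold change was -0.64 without N+P C5 replicate 1, in a fit that kept the C1 sample of that mouse (64.8 CPM). S+P C5 differed from Sensitized by 0.42 ± 0.96 (adjusted p = 1.0), and N+P C5 from Naive by 0.90 ± 1.21 (adjusted p = 1.0). *Fosl2*, which encodes the FOS-related protein FRA-2, ranged from 2.85 to 86.4 CPM. It lay between 26.2 and 50.9 CPM in N+P C5 and between 16.8 and 21.4 CPM in N+P C1 with no overlap, as was so for 5.48% of genes, and N+P C5 differed from Naive by 0.75 ± 0.92 (adjusted p = 1.0).

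*Jun*, *Junb* and *Fos* tended to be high or low in the same samples (Pearson's r of 0.68 to 0.83), and their start regions are shown for that reason. *Jund*, not shown, also went with *Jun* (0.87), *Junb* (0.77) and, less closely, *Fos* (0.59). The part of the start regions in this was not tested. The regions are the 300 bases around the RefSeq start site (GRCm38.p6, 250 bases before it and 50 after, read along the gene's strand), at chr4:95052173-95052472 on the minus strand for *Jun*, chr8:84978699-84978998 on the minus strand for *Junb* and chr12:85473640-85473939 on the plus strand for *Fos*. Capitals mark matches to TGACATCA, a variant AP-1 and CRE site, on either strand, or to TATAAA on the gene's strand.
Jun: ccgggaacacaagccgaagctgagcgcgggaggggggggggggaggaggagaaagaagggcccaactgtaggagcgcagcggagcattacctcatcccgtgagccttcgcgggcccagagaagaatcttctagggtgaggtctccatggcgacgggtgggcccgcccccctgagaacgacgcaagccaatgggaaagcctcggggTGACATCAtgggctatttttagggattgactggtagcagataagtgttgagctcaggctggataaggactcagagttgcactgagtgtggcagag
Junb: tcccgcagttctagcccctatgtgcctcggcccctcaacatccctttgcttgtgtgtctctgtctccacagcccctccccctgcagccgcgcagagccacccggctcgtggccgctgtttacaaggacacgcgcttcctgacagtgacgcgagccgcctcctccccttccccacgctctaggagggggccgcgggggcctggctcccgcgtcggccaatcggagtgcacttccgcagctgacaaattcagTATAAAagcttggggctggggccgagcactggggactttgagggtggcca
Fos: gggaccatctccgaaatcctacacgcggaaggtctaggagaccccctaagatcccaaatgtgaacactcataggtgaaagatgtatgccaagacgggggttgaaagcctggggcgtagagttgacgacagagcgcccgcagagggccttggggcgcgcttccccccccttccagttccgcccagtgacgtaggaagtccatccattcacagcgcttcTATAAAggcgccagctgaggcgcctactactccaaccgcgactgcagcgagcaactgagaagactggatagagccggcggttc

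The motifs searched were the AP-1 site TGANTCA, the CRE TGACGTCA, the variant TGACATCA and the CArG box of serum response factor on both strands, and TATAAA on 1 strand. None of them overlapped another in these windows. The *Jun* window had TGACATCA at bases 206 to 213, which 3.62% of the 32851 start regions in the table held. The *Fos* window had TATAAA at bases 218 to 223 and the *Junb* window at bases 251 to 256, which 8.32% of all start regions held. None of the 9 genes with a window had TGANTCA (7.81% of all), TGACGTCA (1.79%) or a CArG box (1.63%) within these 300 bases.

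These 3 genes varied widely between mice of a group. After its values were seen, S+P mouse 6 was singled out. It had the lowest *Fos*, *Junb* and *Fosb* of its group in all 3 subsets. *Fos* was 38.8 CPM in its C4, 8.81 in its C5 and 21.6 in its C7 cells, and *Junb* was 178, 146 and 111 CPM. *Jun* was the lowest of the group in C4 (19.4 CPM) and C5 (11.5 CPM) and second lowest in C7 (5.72 CPM). Its *Batf* and *Maf* were not at the bottom of all groups, with *Maf* at 77.1 CPM in C5 and at 66.4 CPM in C7, the highest C7 value. The summed level of 20 other immediate early genes, such as *Dusp1*, *Ier2* and *Zfp36*, was also lowest in this mouse, at 1277 CPM of a group range up to 6177 in C4, 1297 of up to 3788 in C5 and 1099 of up to 4985 in C7. Gene by gene, with ties counted, mouse 6 was lowest for 5 of the 19 early genes that exceeded 3 counts in C4. In C4 mouse 2 was lowest for 10 and mouse 3 for 7. Mouse 6 was lowest for 9 of 19 in C5 and for 13 of 19 in C7. Sensitized replicate 4 had the lowest *Fos* (17.3 CPM), *Jun* (21.8 CPM) and *Batf* (28.8 CPM) of its group and 1596 CPM of the early genes, against 3809 to 6655 in the other Sensitized mice. Its *Junb* (256 CPM) was not the lowest, and its *Maf* (4.15 CPM) was the highest. It also held the neutrophil genes *S100a8* (68.4 CPM) and *S100a9* (27.5 CPM) at their highest in the group, where the medians were 0, and their part in these levels was not tested.

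**Figure D2:**
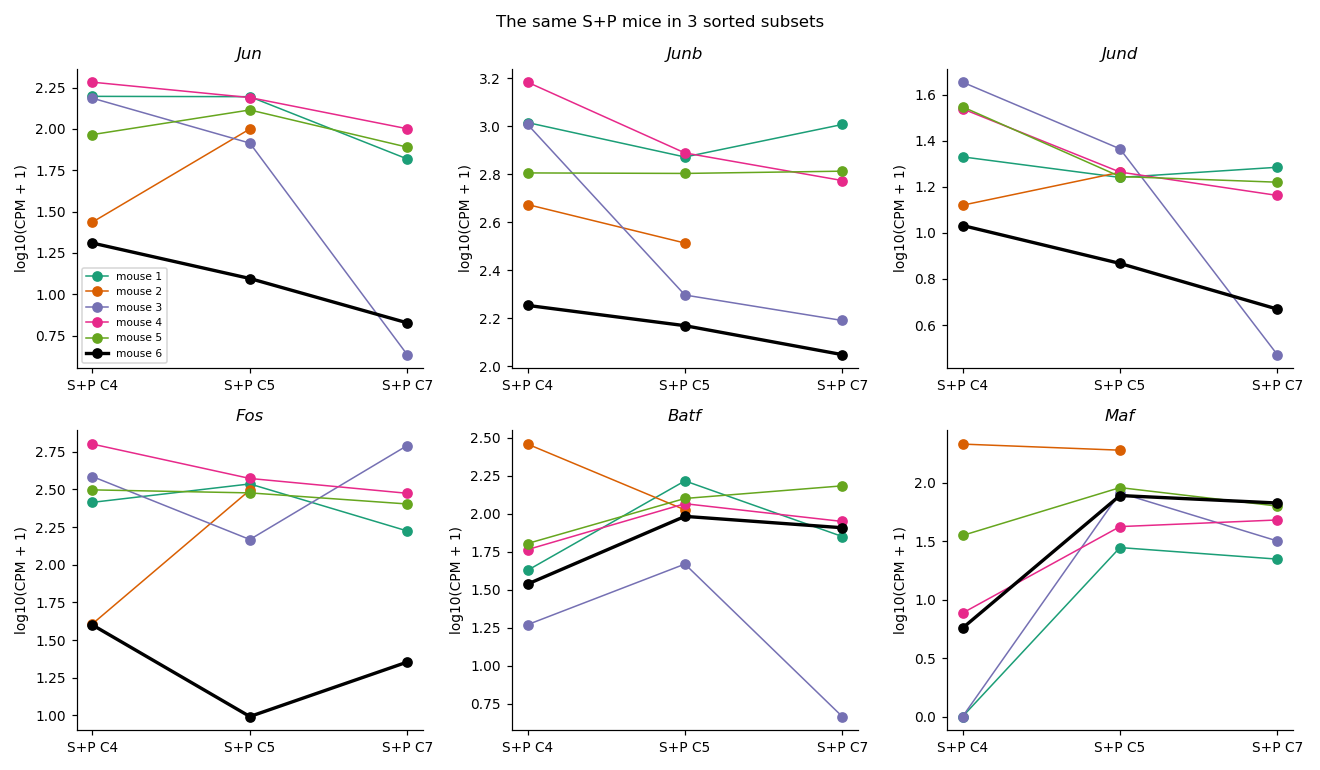
Levels of 6 genes in the C4, C5 and C7 subsets of the same S+P mice, as log10 of CPM plus 1, each line being 1 mouse. Mouse 6 (thick black) is at or next to the bottom for *Jun*, *Junb*, *Jund* and *Fos* in all 3 subsets and not for *Maf*, and mouse 3 drops in C7 for *Jun*, *Jund* and *Batf*.

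The libraries made from separate wells of the same mouse and subset give the technical spread. Over 23 such pairs the SD on the scale of log2(CPM + 1) was 0.67 for *Jun*, 0.47 for *Junb* and 0.87 for *Fos*. Between samples of a group the SD was 1.45, 1.03 and 1.83 over all 30, and 1.48, 1.12 and 2.03 over the 23 samples with 2 libraries. The 3 samples with few genes are single libraries and are in the first of these SDs only. For *Batf* the SD was 0.94 between wells, 1.13 over all 30 samples and 0.46 over those 23, and for *Jund* it was 0.59, 0.78 and 0.73. The SD between wells is of single libraries scaled to their own totals, and the SD between samples is of summed libraries with TMM factors. For *Batf* the median absolute difference between wells was 0.48 on the log2 scale, and the largest was 5.86, in Sensitized replicate 2. A difference between well and mouse spread was not tested. The low *Fos* of S+P mouse 6 was present in all 6 of its libraries (7.16 to 62.8 CPM of the library's own total). In Sensitized replicate 4 one library had 666 *Fos* counts and the other 1 count. Which difference in handling or in the mice goes with these levels was not tested.

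**Figure D3:**
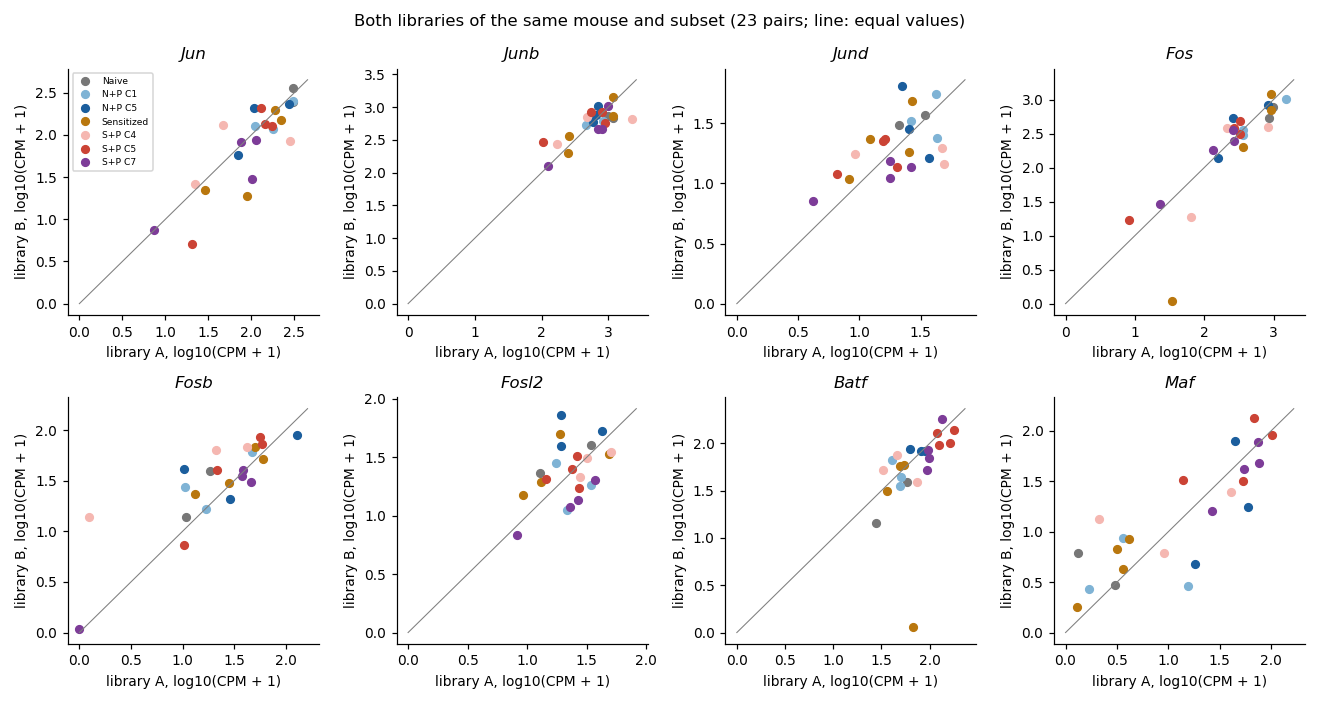
CPM of 8 genes in library A against library B of the same mouse and subset, as log10 of CPM plus 1, for 23 pairs, with a line at equal values. The SD between the libraries of a pair is 0.47 on the log2 scale for *Junb*, and 1 Sensitized pair each lies far from the line for *Fos* (666 counts against 1) and for *Batf* (924 counts against 1).

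*Batf*, needed for effector differentiation of CD8 T cells and sustained in exhausted cells, was present in every sample. It stood at 79.1, 52.2 and 21.8 CPM in Naive, at 66.2, 47.0 and 34.8 in N+P C1 and at 86.3, 80.4 and 59.4 in N+P C5. In each of the 3 N+P mice C5 had more than C1, but N+P C5 overlapped Naive (0.56 ± 0.86, adjusted p = 1.0). Sensitized mice had 54.7, 46.3, 54.1 and 28.8 CPM. S+P C5 mice had 164, 105, 45.7, 116, 125 and 95.3 CPM, so that 5 of 6 were above every Sensitized mouse and mouse 3 was within their range. The difference was 1.24 ± 0.71 (unadjusted p = 0.0902, adjusted p = 0.525). S+P C7 samples had 70.0, 3.64, 88.1, 152 and 80.0 CPM, with replicate 3, the sample with globin RNA, apart from the rest (0.78 ± 0.72, adjusted p = 1.0, against Sensitized). In S+P C4 5 samples lay between 17.7 and 62.8 CPM, near Sensitized, and replicate 2 had 287 CPM. C5 had more *Batf* than C4 in 5 of 6 S+P mice, the exception being mouse 2. The fitted difference of S+P C5 from S+P C4 was 0.38 ± 0.61 (adjusted p = 0.95), 0.97 with the mouse as a block, and 1.14 without the 3 samples with few genes.

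*Batf3*, the dimer partner known from dendritic cells, had a single count, in S+P C5 replicate 6, in all 30 samples. A count of 0 allows up to 3 counts, which is 0.0539 to 0.298 CPM at the depth of these samples. It was not tested because it did not pass the filter on low counts.

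*Maf* is the gene for which the groups lay furthest apart. Naive mice had 5.60, 2.52 and 2.08 CPM, N+P C1 mice 1.57, 4.81 and 6.80, and Sensitized mice 0.539, 3.40, 3.06 and 4.15. N+P C5 mice had 34.4, 10.3 and 48.3 CPM, S+P C5 mice 27.0, 190.0, 81.2, 41.3, 90.3 and 77.1, and S+P C7 samples 21.3, 30.9, 47.2, 62.4 and 66.4. Neither PD-1-positive S+P subset overlapped Sensitized, and N+P C5 overlapped neither Naive nor N+P C1. Higher levels without overlap were found for 0.778% of genes in S+P C7 against Sensitized, for 7.4% in N+P C5 against Naive and for 5.48% in N+P C5 against N+P C1. S+P C4 had 0, 214, 0, 6.70, 34.6 and 4.73 CPM and spanned nearly the whole range, with replicate 2, of few genes, at the top.

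In S+P C5 against Sensitized *Maf* differed by 4.92 ± 1.51 on the log2 scale (means 84.5 ± 57.3 CPM, n = 6, and 2.79 ± 1.57 CPM, n = 4), with an unadjusted p of 0.00267 and an adjusted p of 0.276. 5.26% of all genes tested were higher at an unadjusted p under 0.05 there, and 1.45% were higher with no overlap. The adjusted p was 0.00997 when only these 2 groups were fitted, where 1.06% of genes passed the thresholds, and 0.018 without the 3 samples with few genes, where 1.02% did. None of those 3 samples belongs to either group, so the fitted value was nearly unchanged at 4.94, with an SE of 1.05. DESeq2 gave an adjusted p of 0.00067, where 3.18% of genes passed. Over all alternatives the adjusted p ran from 0.00067 to 0.527 and the log2 fold change from 4.52 to 5.18. Markers of other cells differed beside it. *Cd68*, a myeloid marker, lay between 26.4 and 79.0 CPM in S+P C5 and between 3.60 and 12.9 CPM in Sensitized, while *Lyz2* was at 0 in all S+P C5 samples and reached 332 CPM in Sensitized. The sum over the 9 myeloid markers ran from 30.6 to 113 CPM in S+P C5 and from 44.4 to 399 CPM in Sensitized, and *Klrb1c* had medians of 4.51 and 79.8 CPM. Their part in the *Maf* difference was not tested. In S+P C7 against Sensitized the difference was 4.03 ± 1.46 (adjusted p = 0.473). In S+P C4 against Sensitized it was 3.96 ± 1.43 (adjusted p = 0.316), a value that came to 2.10 without the 3 samples with few genes and to 1.76 without S+P C4 replicate 2 alone.

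In naive mice after pregnancy the difference had the same sign. N+P C5 differed from Naive by 3.19 ± 1.64 (unadjusted p = 0.0615, adjusted p = 0.763) and from N+P C1 by 2.82 ± 1.62 (adjusted p = 0.917), and C5 was higher than C1 in 3 of 3 mice. In the same N+P C5 samples *Itgax* lay between 2.95 and 11.8 CPM, against 0 in Naive (adjusted p = 0.32) and at most 0.0287 CPM in N+P C1. *Klrb1c* lay there between 2.42 and 9.42 CPM, against at most 0.0823 CPM in Naive (adjusted p = 0.763). The 9 myeloid markers summed to 16.1 to 24.2 CPM in N+P C5 and to 1.59 to 47.6 CPM in Naive, with *Lyz2* at 0 in N+P C5, and their part was not tested. The difference between both pregnancy effects, S+P C5 from Sensitized less N+P C5 from Naive, was 1.73 ± 1.96 (adjusted p = 1.0), so the effect sizes could not be told apart at this spread. S+P C5 and N+P C5 overlapped and differed by 1.45 ± 1.40 (adjusted p = 1.0). Sensitized and Naive, both low, differed by -0.29 ± 1.41 (adjusted p = 1.0). Among the S+P subsets C5 differed from C4 by 0.96 ± 1.08 (adjusted p = 0.87). It was 3.15 without S+P C4 replicate 2, with the C5 sample of that mouse kept. With the mouse as a block the value was 3.86 ± 1.96 (adjusted p = 0.999), and C5 was higher in 5 of 6 mice, mouse 2 being the exception with 214 CPM in C4 and 190.0 in C5. C7 differed from C5 by -0.89 ± 1.14 (adjusted p = 1.0). In single libraries *Maf* reached at most 7.39 CPM of the library's own total in Sensitized, and was at least 12.9 in S+P C5 and at least 15.0 in S+P C7.

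**Figure D4:**
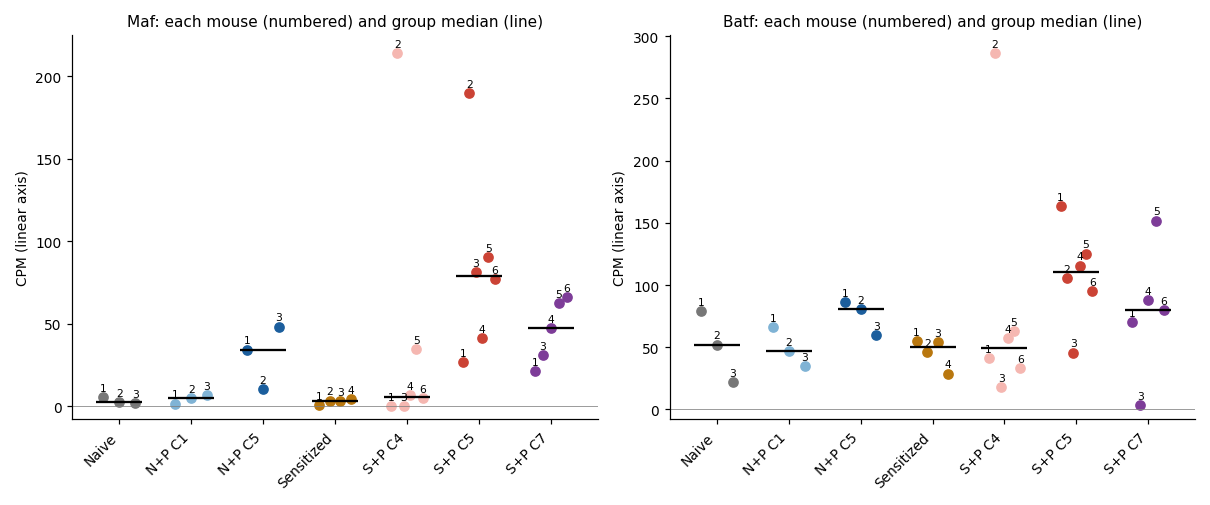
*Maf* (left) and *Batf* (right) in CPM on a linear axis for each numbered mouse, with a line at the group median. *Maf* medians are 79.2 CPM in S+P C5, 47.2 in S+P C7 and 34.4 in N+P C5 against 2.52 in Naive and 3.23 in Sensitized, and S+P C4 replicate 2 stands apart for both genes (214 and 287 CPM).

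*Atf3* was found in few samples and is given by library, with no fold change, since its fitted values rest on groups at 0. It had 1385 counts in the single library of S+P C7 replicate 3 (64.7 CPM), 97 and 88 counts in both libraries of S+P C7 replicate 4 (6.02 CPM) and 97 and 153 in both libraries of S+P C4 replicate 4 (6.92 CPM). In Sensitized replicate 2 one library had 274 counts and the other 0 (13.7 CPM). S+P C4 and S+P C7 replicate 4 come from the same mouse. All 6 S+P C5 and all 3 N+P C1 samples had 0 counts, and no library used in Naive or N+P C5 had more than 5. It reached an unadjusted p under 0.05 in 4 comparisons, each involving S+P C5, and passed the thresholds in none.

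Over the 9 genes tested and all 12 comparisons, 108 fits, edgeR called 0, 7 had an unadjusted p under 0.05 and the smallest adjusted p was 0.276. The 7 were 3 for *Maf* and 4 for *Atf3*. The share of all genes called was 0.153% in Sensitized against Naive, 0.0% in N+P C1 against Naive, 0.0407% in N+P C5 against Naive, 0.00509% in N+P C5 against N+P C1, 0.00509% in S+P C4 against Sensitized, 0.0712% in S+P C5 against Sensitized and 0.0305% in S+P C7 against Sensitized. It was 0.0305% in S+P C5 against S+P C4, 0.00509% in S+P C7 against S+P C4, 0.0% in S+P C7 against S+P C5, 0.0% in S+P C5 against N+P C5 and 0.0254% for the difference between the effects. An unadjusted p under 0.05 was found, in the order of these comparisons, for 7.85%, 3.25%, 5.34%, 4.34%, 12.7%, 13.0%, 10.2%, 13.3%, 15.9%, 12.7%, 5.9% and 6.43% of all genes. DESeq2 called *Maf* in 3 comparisons and *Atf3* in 7, and in the same order it called 3.32%, 2.24%, 3.06%, 2.5%, 2.89%, 3.18%, 2.42%, 3.05%, 3.03%, 1.88%, 2.23% and 2.48% of all genes. It was run without the filter on low counts, so these shares are of 33294 genes. Its *Atf3* call in N+P C1 against Naive rests on 1 count in Naive replicate 1. Those in N+P C5 against N+P C1 and S+P C5 against N+P C5 rest on 7 counts in N+P C5 replicate 1. The median log2 fold change of the 9 genes was -0.29 in Sensitized against Naive, beside 0.044 over all genes. It was 0.56 for N+P C5 less Naive, beside 0.0, and -0.16 for S+P C5 less Sensitized, beside -0.0050.

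**Figure D5:**
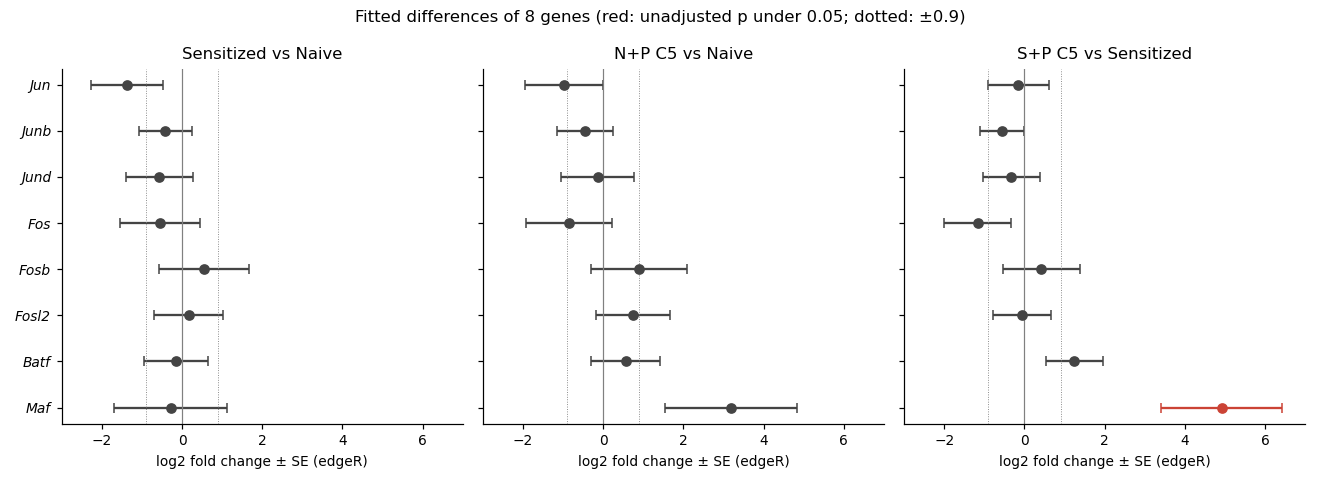
Log2 fold change of 8 genes in 3 comparisons from edgeR, with bars of 1 SE, red where the unadjusted p was under 0.05, and dotted lines at 0.9 in both directions. Most bars of the JUN and FOS genes reach 0, *Batf* is at 1.24 in S+P C5 against Sensitized, and *Maf* is at 3.19 and 4.92 in the comparisons of C5 with Naive and with Sensitized.

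Genes that act with these factors were taken from lists. Of 7 partners of BATF and JUN, edgeR called 0 in every comparison and DESeq2 0 to 2, and 3 had a higher level at an unadjusted p under 0.05 in S+P C5 against Sensitized, where 5.26% of all genes had one and 1.45% were higher without overlap. *Irf4*, named after its values were seen, lay between 51.9 and 96.3 CPM in S+P C5 and between 0.0303 and 6.28 CPM in Sensitized, with no overlap (4.05 ± 1.54, adjusted p = 0.276). *Nfatc1*, an NFAT factor that can join AP-1 on DNA, lay between 265 and 418 CPM against 104 to 152 CPM (1.42 ± 0.35, adjusted p = 0.205). *Irf8*, also named after its values were seen, was the third, at 13.2 to 69.4 against 0 to 13.6 CPM (2.63 ± 1.23, adjusted p = 0.349). In N+P C5 *Nfatc1* lay between 242 and 266 CPM against 75.9 to 110.2 CPM in Naive (1.46 ± 0.43, adjusted p = 0.667). The median log2 fold change of the 7 partners was 0.41 in S+P C5 against Sensitized, beside -0.0050 over all genes.

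Of 10 known AP-1 and MAF targets 9 were tested. *Ifng* passed both thresholds in Sensitized against Naive, at 34.0 to 158 CPM against 0.0756 to 5.19 CPM (4.84 ± 1.10, adjusted p = 0.0826), where DESeq2 also called it. It lay between 48.1 and 155 CPM in N+P C5 (4.70 ± 1.11 against Naive, adjusted p = 0.182). *Il21*, a cytokine that MAF is known to induce, was at 0 in all 4 Sensitized mice and at 1.14 to 51.4 CPM in the 6 S+P C5 mice (adjusted p = 0.248). It was also at 0 in N+P C1, against 2.12 to 37.1 CPM in N+P C5 (adjusted p = 0.917). *Il10* was at 0 in Sensitized and between 0 and 28.4 CPM in S+P C5, with a median of 12.7 CPM. *Ctla4* lay between 99.9 and 576 CPM in S+P C5 and between 27.3 and 98.1 CPM in Sensitized (2.51 ± 0.98, adjusted p = 0.276), and *Icos* had medians of 449 and 152 CPM. *Il10*, *Ctla4* and *Icos* were named after their values were seen, and 4 of the 9 targets were higher and 0 lower at an unadjusted p under 0.05 in S+P C5 against Sensitized, beside 5.26% and 7.73% of all genes. In N+P C5 against Naive 5 of the 9 were higher and 0 lower, beside 3.22% and 2.12% of all genes. DESeq2 called 0 to 3 of the 10 targets in a comparison. It called *Il21* in 5 comparisons, among them S+P C5 over Sensitized and over S+P C4, and N+P C5 over Naive and over N+P C1. It called *Il10* in 5, among them S+P C5 over Sensitized, and *Ifng* also in N+P C5 over Naive.

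Among the 20 other immediate early genes 19 were tested, and edgeR called 0 in every comparison, as for 11 upstream kinases and 18 other zipper factors. DESeq2 called 0 or 1 of the early genes, 0 to 2 of the zipper factors and 0 of the kinases. 0 of the kinases had an unadjusted p under 0.05 in any comparison. At that level 0 to 2 of the zipper factors and 0 to 2 of the early genes were found in each direction. In S+P C5 against Sensitized 2 early genes were lower at that level, where 7.73% of all genes were. *Btg2* lay at 90.5 to 252 CPM against 296 to 853 CPM (-1.34 ± 0.36, adjusted p = 0.276). *Zfp36*, whose product degrades cytokine mRNA, was named after its values were seen. It had medians of 96.5 and 212 CPM (-1.50 ± 0.59, adjusted p = 0.276). *Bach2*, named after its values were seen, is a zipper repressor that competes with AP-1 for its sites and had medians of 20.1 CPM in S+P C7 and 53.5 CPM in S+P C4 (-2.53 ± 0.91, adjusted p = 0.244).

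As a description over all 30 samples, with no test, the genes most like each of 4 factors in log2(CPM + 1) were found among the 19659 tested. For *Maf* they were *Ifi27l2a*, *Tox* and *Tbc1d4*, with Pearson's r of 0.87, 0.87 and 0.86. For *Jun* they were *Jund*, *Junb* and *Atf4* (0.87, 0.83 and 0.83) and for *Fos* *Klf6*, *Jun* and *Rpl13* (0.75, 0.75 and 0.74). For *Batf* they were *Dut*, *Rnf19a* and *Zswim8* (0.84, 0.83 and 0.82). Without the 2 samples farthest from the factor's median, r stayed at 0.83 or more for the *Maf* genes and went down to 0.54 for *Zswim8*. Between the factors, *Batf* and *Maf* had r = 0.51, and *Maf* and *Fos* -0.40. Samples with few detected genes enter these values, as do samples of the same mouse.

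4 of the genes share exon bases with a gene on the opposite strand in the table. *Jun* shares 528 bases with *Junos*, *Junb* 173 with *Prdx2*, *Jund* 877 with *Gm11175* and *Maf* 440 with *Gm15655*. Whether counting used the strand is not stated, so reads of these stretches cannot be assigned for sure. *Gm11175* and *Gm15655* had 0 counts in all samples, *Junos* at most 4.25 CPM, and *Prdx2* 63.1 to 621 CPM.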

How the data were processed

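RNA-Seq libraries were amplified by SmartSeq2, without molecular identifiers, from 200 sorted TFGS each and sequenced in 1 run. The authors deposited raw counts per Ensembl gene and library (56 libraries, 6636532 to 32625243 counts). Per the labels, the authors used cutadapt 3.4, STAR 2.6.1b and featureCounts 2.0.1 on GRCm39, and kept read pairs that mapped to 1 place. The strand option and annotation release are not given in the sources used here. Floors (3 counts) cover counting error only. The SE of a fold change also includes the spread between samples.

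Gene positions came from GENCODE M39. Technical libraries were summed. A library present in Naive and S+P C4 was left out of both groups, and near-identical libraries of S+P C7 replicates 1 and 2 were averaged, so 30 samples entered. The other Naive library and S+P C4 library of those mice were kept. 4 column names differed from the labels by a letter and were matched as the only library of that mouse and subset.

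Counts were tested with edgeR 4.0.16 in R 4.3.3 (glmQLFit with robust estimates, 7 groups in 1 design, TMM factors). filterByExpr at 10 counts left 19659 genes, over which two-sided p-values were adjusted by Benjamini-Hochberg. To be called, a gene needed an adjusted p below 0.1 with a log2 fold change beyond 0.9 either way, the study's limits. The SE is the log2 fold change divided by the root of the F statistic. Alternatives were DESeq2 1.42.0, RLE scaling, no filter, only the groups compared, an FDR of 0.05, a replicate block, all 56 libraries, leaving out samples with under 9000 genes, and leaving out each sample. The code was tested on simulated data. Tables and plots used Python 3.11.15, pandas 2.3.3 and matplotlib 3.10.9. Start regions came from a RefSeq table (GRCm38.p6), in which 9 of the 10 genes were found.

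The 10 genes, the gene lists, the tests and the alternatives were chosen with earlier results of these data known. Named were all 10 genes, and from each list the genes past both thresholds, those without overlap at an unadjusted p under 0.01 (at most 4), and for *Fos*, *Jun*, *Batf* and *Maf* the 3 genes with the highest Pearson's r. Other genes of the factor, partner, target and early gene lists with values given are marked as named after their values were seen. Not marked, though outside this rule, are the early gene examples, the opposite-strand genes and some cell markers. Those markers are *Cd8a*, *Cd4*, *Cd68*, *Lyz2*, *S100a8*, *S100a9*, *Hba-a1* and *Ncr1*. Subsets of the same numbered N+P or S+P mouse come from the same animal. Their deviations from the group means correlated at 0.0749 to 0.193 on average for the same mouse and at -0.0374 to -0.0183 for different mice. Only the counts of mice and the replicate block compared subsets within a mouse. The main fit had no term for the mouse, so its SEs and p-values treat these subsets as independent. P-values rest on the spread between samples of a group. Samples of Naive, Sensitized, N+P and S+P with the same number are different animals.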

Additional observations from a re-analysis of the deposited data

Results flagged for a closer look

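There were 35 sets of values of 1 gene in 1 group of 4 to 6 samples. In 6 of them the gap between the highest or lowest sample and the next exceeded Dixon's limit at 95%. The rule flags about 1 in 20 sets by chance where values are normal. It was applied to linear CPM, and most *Atf3* samples were at or near 0, so that rate need not hold here. *Maf* was 214 CPM in S+P C4 replicate 2 and 0 to 34.6 CPM in the other 5 samples. *Batf* was 287 CPM in the same sample and 17.7 to 62.8 CPM in the others. That sample was a single library with 8002 detected genes. *Jund* was 6.37 CPM in S+P C5 replicate 6, against 16.4 to 22.2 CPM. *Atf3* was 13.7 CPM in Sensitized replicate 2 (others at most 0.198), 6.92 CPM in S+P C4 replicate 4 (others 0) and 64.7 CPM in S+P C7 replicate 3 (others at most 6.02), the last being the sample with globin RNA.

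The library that stands with the same counts in Naive replicate 1 and S+P C4 replicate 1 was used in no comparison. It held *Atf3* at 7.30 CPM of its own total, against at most 0.0379 in the 5 Naive libraries used, and *Fosl2* at 59.0, against 9.89 to 39.1. The 9 S+P C4 libraries used held 0 to 9.62 CPM of *Atf3* and 11.1 to 65.8 CPM of *Fosl2*. To which of the 2 groups the shared library belongs was not tested.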

How the results depend on the processing

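edgeR called 0 of the genes in each of the 12 comparisons, and also 0 with RLE scaling, no filter, an FDR of 0.05, all 56 libraries, the replicate block and with any 1 sample left out (range 0 to 0). DESeq2 called 1 in N+P C1 against Naive, N+P C5 against N+P C1, S+P C4 against Sensitized, S+P C7 against Sensitized, S+P C5 against S+P C4, S+P C7 against S+P C5, S+P C5 against N+P C5 and for the difference between effects, and 2 in S+P C5 against Sensitized. These were *Maf* in the 3 comparisons with Sensitized and *Atf3* in the others, with both in S+P C5 against Sensitized. The *Atf3* calls in N+P C1 against Naive, N+P C5 against N+P C1 and S+P C5 against N+P C5 rest on 7 or fewer counts in 1 sample. In S+P C5 against Sensitized 1 gene, *Maf*, was called when only the groups compared were fitted and also without the samples with under 9000 genes. The DESeq2 fold changes of *Maf* over Sensitized were 3.90 (S+P C4), 4.93 (C5 of the same mice) and 4.02 (C7).

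Of 38 fold changes given, the following changed sign. With the replicate block, which outside the subsets of 1 mouse pairs different animals, they were 0.42 for *Jun*, 0.11 for *Jund* and 0.30 for *Fosl2* in S+P C5 against Sensitized, 0.18 for *Batf* in Sensitized against Naive, -0.34 for *Batf* in S+P C7 against Sensitized (0.78 without the block) and -1.83 for *Maf* in S+P C4 against Sensitized (3.96 without it). With all 56 libraries, *Fosl2* was -0.24 and *Maf* 0.072 in Sensitized against Naive. *Fos* in S+P C7 against S+P C5 was 0.13 and was -0.43 without the samples with few genes. With 1 sample left out, ranges that crossed 0 were -0.50 to 0.20 (*Jun*), -0.60 to 0.13 (*Jund*) and -0.34 to 0.32 (*Fosl2*) in S+P C5 against Sensitized, -0.27 to 0.021 (*Jund*) and -0.39 to 1.33 (*Fosb*, 0.90 with all samples) in N+P C5 against Naive, -0.64 to 1.68 (*Fosb*, 0.64 with all samples) in N+P C5 against N+P C1, -0.22 to 0.81 (*Fosl2*), -0.51 to 0.31 (*Batf*) and -0.55 to 0.28 (*Maf*) in Sensitized against Naive, and -0.41 to 0.43 (*Fos*) in S+P C7 against S+P C5. *Maf* in S+P C4 against Sensitized ran from 1.76, without S+P C4 replicate 2, to 4.24, and in S+P C5 against S+P C4 from 0.54 to 3.15. Leaving out 1 sample kept the other subsets of the same mouse in the fit. The causes were not tested.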
